A study of Helix lucorum with 35 samples.

Results

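The 200 contigs described here are those most enriched, before activation, in a small medial part of the parietal ganglia (PaG) of the land snail Helix lucorum compared with the left or right PaG taken whole. A contig is a stretch of transcript assembled from reads without a genome. The members were selected on the control libraries, by CPM, the count of a contig scaled by the total count of its library. A contig qualified if its lowest CPM among the 6 control libraries of the medial part was above its highest CPM among the 6 control libraries of the whole PaG, which held for 837 of 693041 contigs (0.121%). The 200 with the largest log2 ratio of the mean CPM (0.5 was added to both means) were kept.

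In the land snail, withdrawal of the body is triggered by a few giant premotor interneurons whose cell bodies lie in the PaG. Serotonin (5-HT) modulates this circuit, and the first genes that a stimulated neuron transcribes, the immediate early genes, need no new protein for their transcription. A transcript enriched in a dissected piece of a ganglion can come from its neurons or from other cells, and the deposited values give no means to assign it.

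The libraries came from 13 snails in 2 experiments. In the second experiment (E2, snails 7 to 13), the medial part was cut out, which by the methods held mainly the bodies of the giant premotor interneurons Pa2 and Pa3. In the first (E1, snails 1 to 6), each library was made from the left or the right PaG, and by the methods the left part carried the adhered visceral ganglion, although elsewhere in the study this ganglion is said not to have been used. In both, the activated side was kept for 10 min in saline with 20 µM anisomycin, an inhibitor of protein synthesis, and then for 20 to 25 min with 5-HT (5 µM) and caffeine (100 µM) besides anisomycin. By the methods, all snails were first cooled and injected with magnesium chloride. The isolated ganglia were kept in the cold, and later at room temperature, in a saline high in calcium and magnesium that suppresses electrical activity. The control side of the same ganglia complex was frozen after this, before any of the drugs named above was added. The activated side was washed into normal saline and frozen later. Activated and control libraries thus differ in saline and time as well as in drugs.

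Each experiment had 6 activated and 6 control libraries, 1 side of a snail each, with 4 left and 2 right sides activated in E2 and 3 of each in E1. Snail 7 gave an activated library only and snail 12 a control library only. The total count ranged from 926483 to 29646674 in the activated and from 8551169 to 28246558 in the control libraries of E2, against 4704660 to 30474228 and 3513906 to 35225724 in those of E1. The activated library of snail 9 was by far the smallest, and the results that it was seen to decide are also given without it. The medial part and the whole PaG came from different snails in different experiments, so tissue, animals and experiment cannot be told apart. In addition, more cells of a type and more RNA per cell cannot be told apart in such bulk samples. The count tables used here give no gene name, length or sequence beside a contig, and no sequences were analysed here, so the members are given by number, the dissected cells could not be checked by marker genes, and CPM values are compared between libraries, not between contigs.

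The 200 contigs held between 5.90% and 10.9% of all counts in the activated libraries and between 8.95% and 11.6% in the control libraries of the medial part. In the whole PaG they held between 1.14% and 1.65% in the activated and between 1.17% and 1.98% in the control libraries. Every library of the medial part was thus above every library of the whole PaG, with the activated library of snail 9 lowest at 5.90%. For the control libraries this follows from the selection. The activated libraries took no part in it. The 10 members with the highest mean CPM made up 67.5% of the summed mean CPM of the members in the E2 control libraries.

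**Figure D1:**
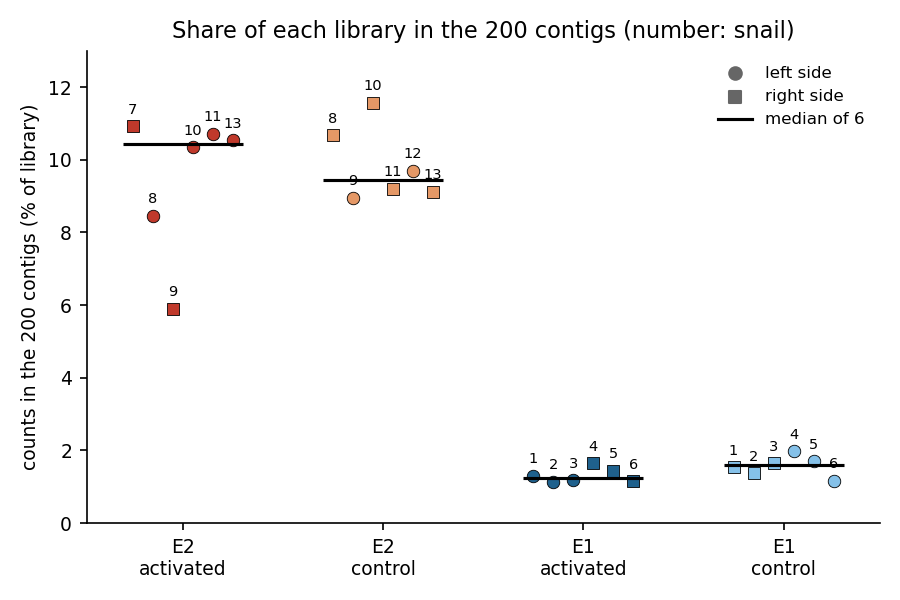
Share of the counts of each library (in %) that fell on the 200 contigs, for the activated and control libraries of the medial part (E2) and of the whole PaG (E1). Each point is a library (circle, left side; square, right side; number, snail) and the line is the median of 6. All 12 E2 libraries lie between 5.90% and 11.6%, all 12 E1 libraries between 1.14% and 1.98%.

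Among the members, the mean CPM in the E2 control libraries ranged between 1.81 and 23509 (median 38.6), with 18 members at or above 1000 CPM and 52 below 10 CPM. The mean in the E1 control libraries had a median of 6.19 CPM. The log2 ratio used for the selection ran from 7.67 at the top of the list to 1.89, with a median of 2.40. At the edge, the last contig kept (205440) had a log2 ratio of 1.895 and the first left out (1414095) had 1.892, so the list has no natural end at this point. The gap between the control groups was narrow for some members. The lowest E2 control value was less than 1.2 times the highest E1 control value in 26 members and at least 2 times as high in 100.

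Contig 367159, the first by the ratio, had 1272, 1340, 1893, 2755, 1134 and 1838 CPM in the activated libraries of E2 (snails 7 to 11 and 13), against 0, 0, 8.40, 16.04, 0 and 7.27 CPM in those of E1 (snails 1 to 6). In the control libraries it had 1374, 1427, 1929, 1506, 825 and 1021 CPM in E2 (snails 8 to 13), against 0.615, 0, 11.8, 14.4, 0 and 9.89 CPM in E1 (snails 1 to 6). The medial part was therefore more than an order of magnitude above the whole PaG in every library, and within E1 the contig was present in snails 3, 4 and 6 on both sides and absent or nearly so in snails 1, 2 and 5 on both sides.

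Contig 507357, the next in rank, was far less even. In the activated libraries it had 0.575 CPM in snail 7, 7.93 CPM in snail 9 and 16.9 to 62.4 CPM in the other 4 of E2, against 0 to 0.651 CPM in E1. It had 2.06 CPM in the E2 control library of snail 8 and between 22.3 and 98.6 CPM in the other 5, against 0 to 1.46 CPM in the E1 control libraries. The library of snail 7 thus lay within the range of the whole PaG.

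The members with the highest mean CPM in the E2 control libraries were contigs 97289 and 731670. Contig 97289 averaged 19655 ± 6773 CPM in the activated and 23509 ± 8698 CPM in the control libraries of E2, against 4133 ± 678 and 4749 ± 1327 CPM in those of E1 (SD, n = 6 each). It alone took between 12140 and 39937 CPM of a library of the medial part. Contig 731670 had 15519, 1226, 4865, 1323, 2636 and 14434 CPM in the activated libraries of E2 (snails 7 to 11 and 13) and 16605, 12796, 3398, 2681, 10114 and 3746 CPM in its control libraries (snails 8 to 13). In E1 it had between 265 and 1059 CPM in the activated and between 304 and 1089 CPM in the control libraries. Its level thus differed more than 10 times between libraries of the medial part, with snails 7 and 13 high and snails 8 and 10 low after activation.

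**Figure D2:**
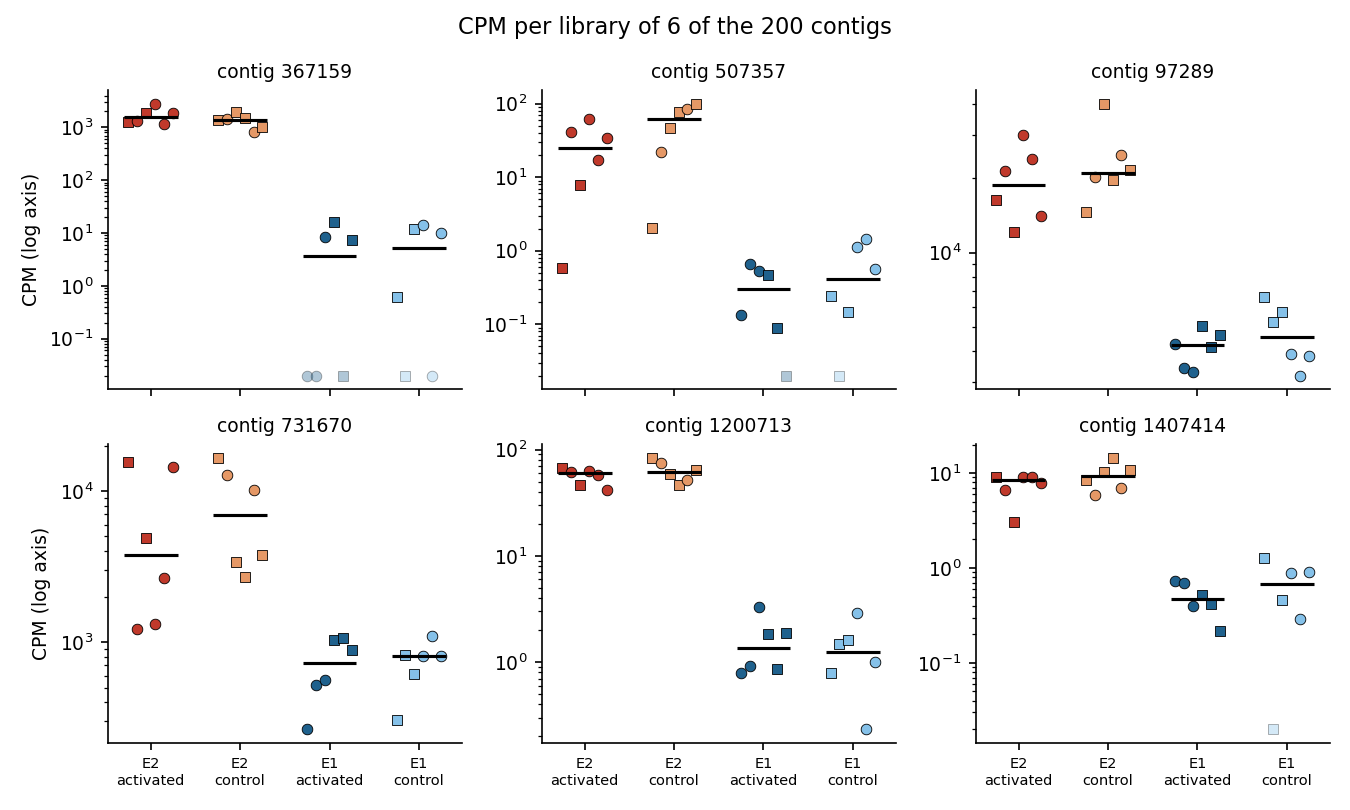
CPM per library (log axis) of 6 of the 200 contigs in the activated and control libraries of E2 and E1. Circles are left and squares right sides, lines are medians of 6, and faded points are libraries without counts, drawn at 0.02 CPM. Contig 507357 has an E2 activated library (snail 7, 0.575 CPM) inside the E1 range, whereas contigs 367159, 1200713 and 1407414 are apart in all libraries.

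Whether the difference also held in libraries that had not served the selection was tested in the activated libraries, 6 of E2 against 6 of E1. A contig was called if its p from edgeR's quasi-likelihood test, adjusted over 357765 contigs by the Benjamini-Hochberg method, was below 0.05 and its groups differed more than 2-fold. By this measure, 157 of the 200 members were called higher in the medial part, against 991 of all contigs (0.277%). None was called lower, against 3562 of all contigs. All 200 had a positive log2 fold change and an unadjusted p below 0.05, against 14597 of all contigs with both. The largest adjusted p among the members was 0.347. The median log2 fold change of the members was 3.19, and that of all contigs tested was -0.15. This comparison is not free of the selection altogether, because 11 of the 12 activated libraries came from snails that also gave a control library to it, and only snail 7 did not.

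Library scaling bore on the size of the difference and not on its direction. With column sums in place of the scaling factors of edgeR (TMM), the median of all contigs shifted by -0.45 and that of the members was 2.71, with 151 members called and all 200 positive. Over all contigs the calls then split into 768 higher and 7827 lower in the medial part, against 991 and 3562 with TMM. With the left libraries alone (4 of E2 and 3 of E1), 83 members were called higher, against 241 of 313899 contigs. With the right libraries alone (2 of E2 and 3 of E1), the same test called no member and none of 179653 contigs. There, 197 of the 198 members tested were positive, and 124 were higher at an unadjusted p below 0.05, against 3860 of all contigs. No other tool was run on the right libraries.

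In the activated libraries, the members with the smallest p were contigs 1200713 and 1407414. Contig 1200713 had 67.5, 61.2, 46.1, 63.0, 57.9 and 41.5 CPM in E2, against 0.782, 0.909, 3.31, 1.83, 0.861 and 1.86 CPM in E1. Its log2 fold change was 5.50 (SE 0.52, edgeR adjusted p = 3.58e-05). Contig 1407414 had between 3.09 and 9.12 CPM in E2, against 0.215 to 0.733 CPM in E1, with a log2 fold change of 4.35 (SE 0.49, edgeR adjusted p = 0.000163). For both, every E2 library was above every E1 library.

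The members with the lowest log2 fold changes in the activated libraries were contigs 1189293 and 575907. Contig 1189293 averaged 14.3 ± 5.47 CPM in E2 and 7.16 ± 4.10 CPM in E1 (SD, n = 6 each), with overlapping libraries and a log2 fold change of 1.42 (SE 0.44, edgeR adjusted p = 0.147). Contig 575907 averaged 46.9 ± 16.1 CPM in E2 and 23.4 ± 12.5 CPM in E1 (SD, n = 6 each), with a log2 fold change of 1.47 (SE 0.46, edgeR adjusted p = 0.153). Neither passed the test. The log2 ratio of the mean CPM of contigs 1189293 and 575907, in this order, was 0.95 and 0.99 in the activated libraries and 1.92 and 3.14 in the control libraries.

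**Figure D3:**
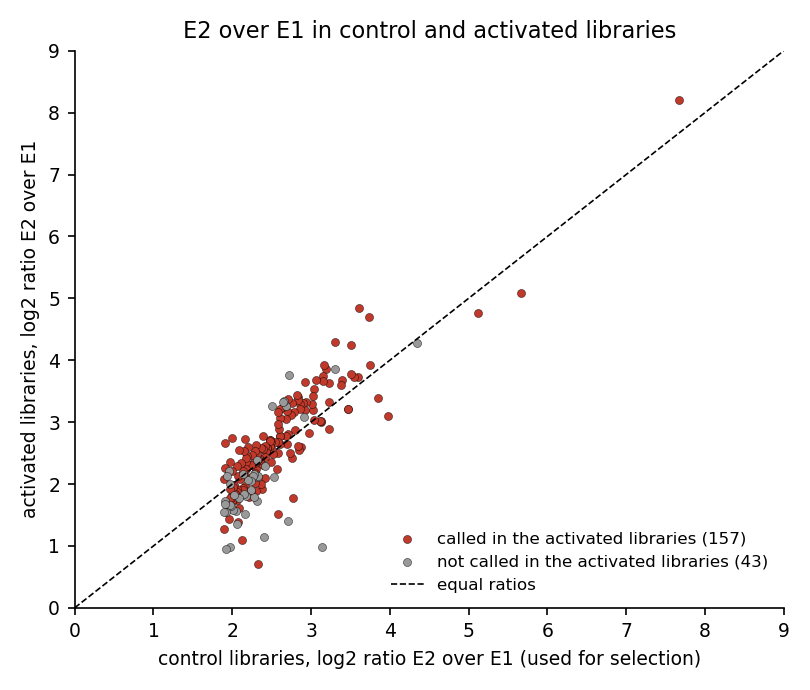
Log2 ratio of mean CPM (0.5 added to both means), E2 over E1, for each of the 200 contigs in the control libraries (x, used for the selection) and in the activated libraries (y). Red points (157) were called higher in E2 in the activated libraries by the quasi-likelihood test, grey points (43) were not, and the dashed line marks equal ratios. All points lie above 0 on both axes, and 196 are above 1 in the activated libraries.

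The calls were spread over the range of abundance, with 43 of the 52 members below 10 CPM and 63 of the 72 members at or above 100 CPM called. When each of the 12 activated libraries was left out in turn, between 114 and 160 members were called, and 110 members were called in all 12 fits. Of the contigs named so far, 731670 (log2 fold change 3.62, SE 0.76, edgeR adjusted p = 0.026) lost its call without the E1 library of snail 1, 2, 3 or 6 or the E2 library of snail 7 or 13, with adjusted p up to 0.0675. Contigs 367159, 507357, 97289, 1200713 and 1407414 were called in all 12 fits.

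A count of libraries without overlap is stricter. In the activated libraries, 59 of the 200 members (29.5%) had their lowest E2 value above their highest E1 value, which held for 0.122% of the contigs tested. Without the activated library of snail 9 it held for 125 members, and for 0.331% of the contigs tested, and without that of snail 7 for 97 members, and for 0.195% of the contigs tested. The E2 library with the lowest value was that of snail 9 in 113 members and that of snail 7 in 45.

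Each activated library of the medial part was also set against all 6 activated libraries of the whole PaG. In the libraries of snails 8, 10 and 11, 194 members each lay above all 6, beside 8.99%, 6.04% and 6.93% of the contigs tested. In that of snail 13, 175 members did (6.54% of contigs). In that of snail 7, which shares no animal with the selection, 155 members did (10.3% of contigs), and in that of snail 9, 117 did (14.5% of contigs). The library of snail 9 had no count for 26 of the 200 members, that is 174 were detected, against 198 to 200 in the other 5.

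Contigs 253000 and 309866 were the 2 members without a count in any of the 12 libraries of the whole PaG. Contig 253000 had 3.40, 2.57, 2.16, 2.44, 1.41 and 1.24 CPM in the activated libraries of the medial part and between 1.83 and 3.16 CPM in its control libraries. With a floor of 3 counts over a group, it was at least 62.0-fold higher in E2 than in E1 in the activated libraries. Its level was thus between 1.24 and 3.40 CPM in all 12 E2 libraries.

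Contig 309866 was, by contrast, present at a high level in few libraries. In the activated libraries of E2 it had 37.4, 18.2 and 26.1 CPM in snails 8, 10 and 13, all of them left sides, 1.15 CPM in snail 7 and at most 0.0374 CPM in snails 9 and 11. In the control libraries it had 31.1 CPM in snail 12, also a left side, and between 0.0904 and 1.05 CPM in the other 5. Pooled over the group, it was at least 397-fold higher in E2 than in E1 in the activated libraries. Its call lost significance without the E1 library of snail 3 (adjusted p = 0.0509) or the E2 library of snail 13 (adjusted p = 0.0559).

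Contig 581762, another member, had between 0 and 0.928 CPM in the E2 activated libraries. In the E2 control libraries it had 11.1 CPM in snail 13 and 0.114 to 0.321 CPM in the other 5. In E1 it had up to 0.213 CPM in the activated libraries and no count in the control libraries. Its place among the 200 thus rests on 1 library. In the E2 control libraries, 7 members had over 50% of their summed CPM in 1 library and 2 members over 80%.

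The 200 members did not vary as 1 set across the libraries of the medial part. Over the 11 E2 libraries other than the activated library of snail 9, the median pairwise correlation (Pearson r of log2(CPM + 0.5)) between members was 0.03. It was 0.16 over all 12 E2 libraries and 0.09 over the 12 E1 libraries. Average-linkage clustering of the E2 values at r of 0.7 gave 48 sets, and the 5 largest held 27, 24, 16, 15 and 12 members, 94 in all. The high correlation within a set in E2 is what the clustering asked for. In E1, which it did not use, the median r within the sets was 0.34, 0.85, 0.88, 0.47 and 0.49, in the same order. These r describe 12 libraries of 6 snails that share sides, depth and animals, and whether contigs of 1 set are pieces of the same transcript was not tested.

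The set of 27 was led by contigs 13701 and 797645 and contained contig 507357. Its summed CPM in the activated libraries of E2 was 196 in snail 7, 7058 in snail 8, 13272 in snail 9, 7922 in snail 10, 2234 in snail 11 and 9917 in snail 13. In the E2 control libraries it ranged from 2999 to 11046. In E1 it ranged from 347 to 1297 in the activated and from 500 to 1670 in the control libraries. Snail 7, a right side, was thus the only E2 library below E1 libraries, although 26 of the 27 contigs had counts there.

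In the whole PaG, the set of 27 followed the side in its summed CPM, in which the abundant contigs weigh most. Its summed CPM was between 738 and 1670 in the 6 left libraries and between 347 and 599 in the 6 right libraries, so the sides did not overlap, and left was above right in 6 of 6 snails. Of its 27 members, 7 were higher on the left in all 6 snails, so most did not follow the side in every snail. These 7 were the only members of the 200 to be higher on the left in all 6, beside 1.12% of the contigs tested in E1. Another 8 members, none of this set, were lower on the left in all 6 snails (1.16% of contigs). The left libraries of E1 carried the visceral ganglion by the methods, and its part in the difference was not tested. In the medial part, left was above right in snails 8, 10 and 13 and below it in snails 9 and 11.

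Of the 27, 20 were called higher in E2 in the activated libraries, and none was without overlap there. Contig 13701 had 51.0, 1934, 3290, 2507, 425 and 2624 CPM in the activated libraries of E2, against 81.4 to 418 CPM in E1 (log2 fold change 3.59, SE 0.78, edgeR adjusted p = 0.0311). With 1 library left out at a time it lost its call in 9 of 12 fits, with adjusted p up to 0.0762, and contig 797645 in 6 of them, with adjusted p up to 0.0568.

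The set of 24, led by contigs 66429 and 1266951, had a different profile. Its summed CPM in the activated libraries of E2 was 36838, 29943, 2842, 23379, 38751 and 18167 in snails 7 to 11 and 13, and from 19336 to 41199 in the control libraries. It thus made up between 0.284% and 4.12% of the counts of a library of the medial part, and the activated library of snail 9 was far below the next. In the whole PaG it followed the animal. In snails 4, 5 and 3 it had 4671, 4279 and 3396 CPM in the activated and 8308, 6509 and 4053 CPM in the control libraries, whereas snails 1, 2 and 6 had between 1051 and 2316 CPM in the activated and between 1340 and 2041 CPM in the control libraries.

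Contig 66429 had 11429, 8884, 975, 7544, 11903 and 6256 CPM in the activated libraries of E2, against 409 to 1575 CPM in E1 (log2 fold change 3.45, SE 0.69, edgeR adjusted p = 0.0174). Its profile was matched most closely over the 12 E2 libraries by contig 1848006 (r = 1.00), and over the 12 E1 libraries by contig 1003414 (r = 0.99). Of the 24 members, 18 were called. The activated library of snail 9 was low in this set and highest in the set of 27. This library had 926483 counts. Its TMM factor was 1.77 in the comparison of E2 with E1, against 0.659 to 1.28 in the other activated libraries. Within E2 it was 1.99, against 0.777 to 1.16 in the others. Its make-up thus differed from that of the other libraries, and the cause was not tested.

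**Figure D4:**
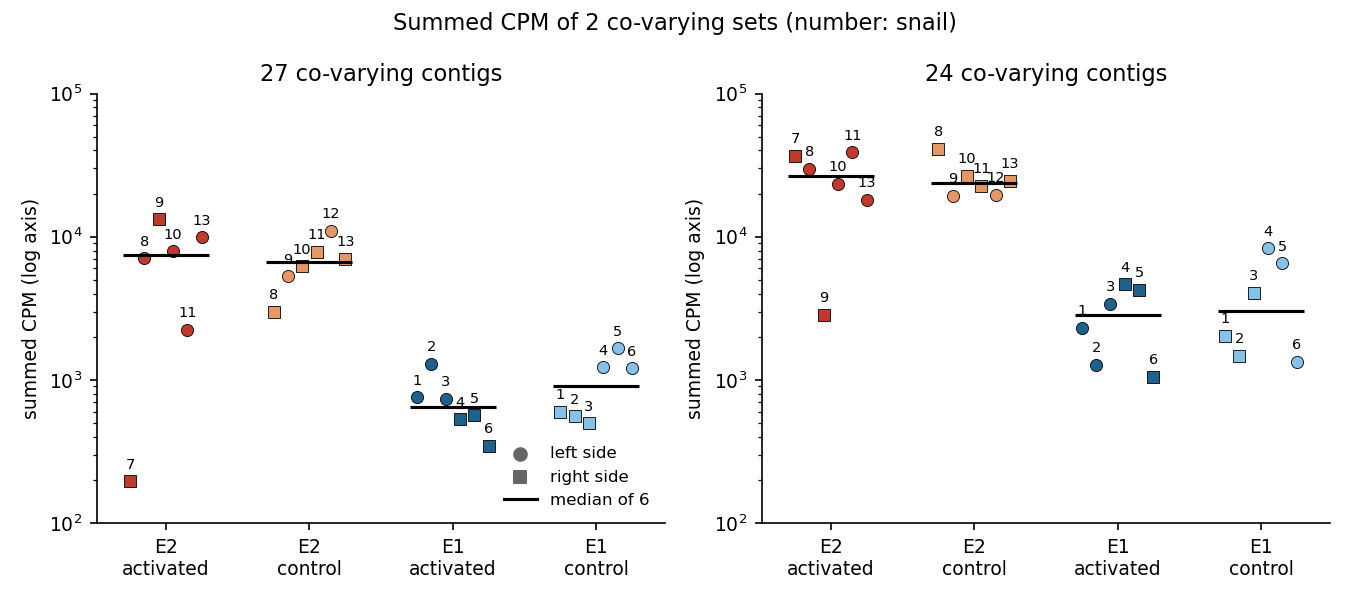
Summed CPM (log axis) per library of 2 sets of co-varying contigs, 27 contigs on the left and 24 on the right, in the activated and control libraries of E2 and E1. Points are libraries (circle, left side; square, right side; number, snail) and lines are medians of 6. The set of 27 is at 196 CPM in snail 7 of E2 and in E1 higher in all left than in all right libraries; the set of 24 is at 2842 CPM in snail 9 of E2 and in E1 highest in snails 3, 4 and 5.

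The other 3 sets held fewer members. All members of the set of 16 were called in the activated libraries, with log2 fold changes between 2.93 and 3.64, and its summed CPM there was between 628 (snail 9) and 3168 in E2, against 295 to 676 in E1. Of the set of 15, 10 were called, with 1446 to 5203 CPM in E2 against 584 to 1157 CPM in E1. Of the set of 12, all were called, with 436 (snail 9) to 2852 CPM in E2 against 149 to 276 CPM in E1. In each of the 3 sets, between 6 and 8 members had no overlap between the activated libraries.

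A pattern by animal was also seen in contig 1620890, ranked 4. In E1 it had 50.1, 46.4 and 40.6 CPM in the activated and 66.8, 81.8 and 37.8 CPM in the control libraries of snails 3, 4 and 6, and at most 0.837 CPM in the 6 libraries of snails 1, 2 and 5. These are the snails in which contig 367159 was present and absent, and over the 12 E1 libraries the 2 contigs had r = 0.98, the closest match of contig 367159. Over the 12 E2 libraries, where both were abundant in all snails, r was 0.20. Contig 1620890 was not called in the activated libraries (log2 fold change 4.83, SE 1.33, edgeR adjusted p = 0.0994), although its lowest E2 value of 204 CPM was above its highest E1 value of 50.1 CPM. Over the members, libraries of the same snail deviated from their group means together in E1, with r between 0.51 and 0.84 in the 6 pairs, against -0.62 to 0.48 for different snails. In E2 this was not clear over the members, with r between 0.05 and 0.47 in the 5 pairs, against -0.45 to 0.46 for different snails.

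The study asked which contigs respond to the activation. In the medial part, none of the 200 members was called by edgeR's exact test in either direction (6 activated against 6 control libraries), where 76 of 317414 contigs were called higher (0.0239%) and 36 lower (0.0113%) after activation. Of the members, 2 were higher at an unadjusted p below 0.05 and none was lower, against 4457 and 5910 of all contigs. The quasi-likelihood test, which called no contig at all, and DESeq2 called none of the members either. The control libraries in this comparison are those of the selection, so the members' values are a description and nothing is read from their direction. The median log2 fold change was -0.07, with 81 members positive and 119 negative, beside a median of -0.06 for all contigs. The lean turned round without the activated library of snail 9 (118 positive, 82 negative, median 0.07) and without the control library of snail 10 (109 positive, 91 negative, median 0.03), and the median stayed negative without any other of the 12 libraries. A quasi-likelihood fit that took the snail as a block called 1 member higher, against 537 of 300806 contigs. It was contig 309866 (log2 fold change 4.86, edgeR adjusted p = 0.000543). The newer mode of that test with the same block called no contig at all (adjusted p = 0.311 for contig 309866). In the fits with the block, the activated library was the left one in every snail with both but snail 9. Activation and side can therefore hardly be told apart there, and the libraries with a high level of contig 309866 were all left sides.

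The member with the smallest p toward higher values after activation in E2 was contig 489415. It had 17.8, 6.97, 11.9, 11.0, 6.53 and 5.95 CPM in the activated libraries (snails 7 to 11 and 13), against 3.00, 4.56, 6.92, 1.65, 5.16 and 1.95 CPM in the control libraries (snails 8 to 13). It was higher after activation in 5 of 5 snails, the groups overlapped, and its log2 fold change of 1.27 did not pass (edgeR exact test, adjusted p = 1). The smallest p toward lower values was that of contig 581762, for which 1 control library stood apart (log2 fold change -2.09, adjusted p = 1).

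In the whole PaG, 195 members passed the filter on low counts and 4 were called higher after activation, against 327 of 387774 contigs (0.0843%). None was called lower, against 7 contigs (0.00181%). The 4 were contigs 489415, 1189293, 1312734 and 1487905, of which the last 2 were named after their values were seen. The E1 control libraries also served the selection, so that the members were chosen to be low there, and the share of 4 in 195 was not read as a property of the members. The tests, overlaps and pairs of the single contigs given below rest on the same control libraries. They are a description and not independent of the selection. The median log2 fold change of the members was -0.20, with 138 negative. The quasi-likelihood test called no contig at all in E1, with 5 members higher at an unadjusted p below 0.05, against 7035 of all contigs.

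Contig 489415 had 6.33, 2.69, 1.55, 1.70, 4.74 and 4.04 CPM in the activated libraries of snails 1 to 6, against 0.199, 0.785, 0.457, 0.652, 0.285 and 0.838 CPM in the control libraries. The groups did not overlap (log2 fold change 2.70, edgeR exact test, adjusted p = 0.00193). Contig 1189293 had 2.35 to 12.3 CPM in the activated against 0.691 to 1.47 CPM in the control libraries (log2 fold change 2.45, edgeR exact test, adjusted p = 0.00165), again without overlap. Contig 1312734 had 4.71 to 15.6 CPM against 0.571 to 4.08 CPM (log2 fold change 2.59, edgeR exact test, adjusted p = 0.00435). Contig 1487905 had 1.44 to 6.62 CPM against 0.399 to 1.42 CPM (log2 fold change 2.08, edgeR exact test, adjusted p = 0.0462). The E1 control libraries held as few as 3513906 counts, so control values below 1 CPM rest on few reads in the smallest of them.

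All 4 were higher after activation in 6 of 6 snails of E1. The first 3 kept their call when any of the 12 libraries was left out, whereas contig 1487905 kept it only without the activated library of snail 3 or 4, with adjusted p up to 0.272 (without the control library of snail 1). In the medial part, contigs 489415, 1312734 and 1487905 were higher after activation in 5 of 5 snails and contig 1189293 in 4 of 5, with log2 fold changes of 1.27, 1.26, 1.06 and 1.10 that did not pass the test. Whether the change differed between the experiments was not tested. The 4 contigs resembled each other across libraries, with pairwise r between 0.80 and 0.98 over the 12 E2 libraries and between 0.84 and 0.93 over the 12 E1 libraries, which hold the activation itself.

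**Figure D5:**
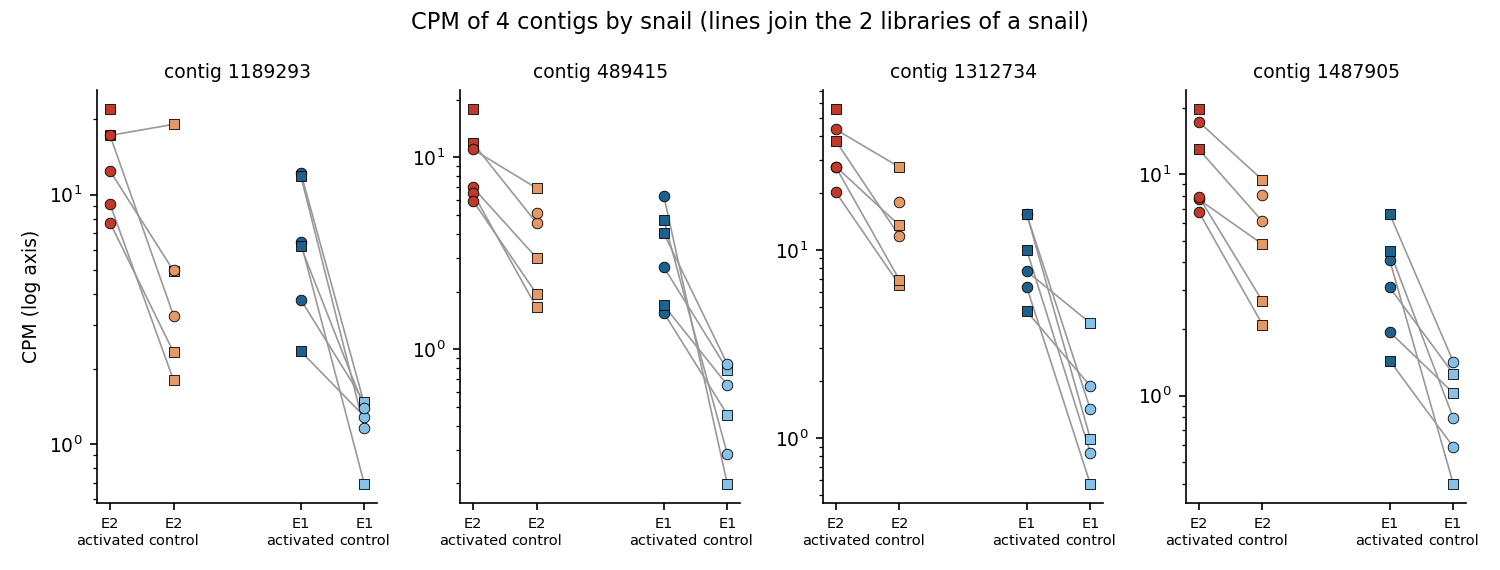
CPM (log axis) of the 4 contigs called higher after activation in E1, in the activated and control libraries of E2 and E1. Points are libraries (circle, left side; square, right side) and lines join the activated and control library of 1 snail. In E1 every line falls toward the control library, and in E2 all do but that of snail 10 for contig 1189293.

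A quasi-likelihood fit with a block for each snail called 6 members higher in E1, against 1175 of 387774 contigs. They were the same 4 and contigs 575907 and 1898481. The newer mode of the test called 5 members higher, against 466 contigs. The members were chosen to be low in the E1 control libraries, so these counts are not read as a property of the members. Contig 575907 had 33.9, 13.3, 9.97, 16.6, 42.0 and 24.4 CPM in the activated libraries of E1, against 1.02, 0, 0, 4.83, 7.11 and 0 CPM in the control libraries. It was higher after activation in 6 of 6 snails of E1 and 5 of 5 of E2. Its log2 fold change in E1 of 3.44 did not pass the exact test (adjusted p = 0.395).

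Left and right sides of the medial part were compared over its 12 libraries with the condition as a covariate. The control libraries among them also served the selection, which did not use the side. No member was called by edgeR's quasi-likelihood test, where 171 of 317414 contigs (0.0539%) were higher and 4 (0.00126%) lower on the left. Of the members, 7 were higher and 2 lower on the left at an unadjusted p below 0.05, against 4975 and 3606 of all contigs. A positive log2 fold change, left over right, was seen in 156 of 200, with a median of 0.27 over the members, beside 0.03 for all contigs. Without the activated library of snail 9, a right side, the median of the members was -0.05 and that of all contigs -0.10, and 80 members were positive. Without any other of the 12 libraries, between 151 and 180 members were positive, with a median between 0.19 and 0.56. The positive sign of the median thus depended on the activated library of snail 9 alone among the 12, while the members' median lay above that of all contigs with and without it. With the snail as a block, 10 members were called higher on the left, against 384 of 300806 contigs. That fit had a median log2 fold change of 1.16 for the members and 0.78 for all contigs. With the newer mode of the test and the block no member was called higher, against 33 contigs. In the fits with the block, left and activated are the same library in all snails with both but snail 9.

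Contig 309866 had the smallest p toward the left (log2 fold change 4.97, SE 1.23, edgeR adjusted p = 0.482), with 4 left libraries between 18.2 and 37.4 CPM and the other 2 left libraries at 0.0374 CPM (snail 11, activated) and 0.234 CPM (snail 9, control). The right libraries had between 0 and 1.15 CPM. Contig 1270402 had the smallest p toward the right (log2 fold change -1.77, SE 0.49, edgeR adjusted p = 0.727). In the activated libraries it had 4.41 to 8.12 CPM in the 4 on the left, against 37.0 and 16.7 CPM on the right, in snails 7 and 9. In the control libraries it had 6.76 and 7.81 CPM on the left, in snails 9 and 12, against 11.7 to 38.3 CPM on the right. In both conditions the sides did not overlap for contig 1270402, yet neither contig passed the test over all contigs.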

How the data were processed

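RNA from 24 pieces of the PaG of 13 snails was sequenced (another 11 samples, used for the assembly alone, are not analysed here). The labels name poly A RNA, but the protocol gives depletion of rRNA followed by a stranded kit for total RNA. Per the labels and the methods, the authors trimmed adapters with cutadapt 1.11, assembled the contigs de novo, mapped the reads with Bowtie 1.0.0 and estimated counts with RSEM 1.2.18. The deposited values are these expected counts per contig, not normalized, 1 table per experiment. Each of the 24 columns carried the name of its sample.

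CPM was computed from the column sums, with no filter. For the tests, expected counts were rounded and contigs with a total above 10 over the libraries compared were kept. edgeR 4.0.16 (R 4.3.3) was used with TMM factors, and contigs were called at a Benjamini-Hochberg adjusted p below 0.05 with more than a 2-fold change. The exact test, which the study used for this purpose, compared activated with control libraries, and the quasi-likelihood test (default mode of glmQLFit) the experiments and the sides. The newer mode (legacy off) and the settings given after the report were alternatives, as was DESeq2 1.42.0. Tests were tested on simulated counts. No label names separate dissections or preparations beyond the snail, so p-values cover the spread between these libraries. A floor of 3 counts over a group, which covers counting error only, was used where a group had none. Total counts ranged from 926483 to 35225724.

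The labels give the animal of each library, so the snail numbers pair the samples. Over contigs with a mean of at least 5 CPM, deviations from the group means correlated with r between 0.73 and 0.80 in the 6 pairs of E1 and between 0.38 and 0.75 in the 5 pairs of E2, and between -0.28 and 0.11 for different snails.

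The members and all lists were chosen with earlier results of these data known. By rule, the contigs named were the 2 ranked first, the 2 highest by mean CPM in the E2 control libraries, in the activated libraries the 2 with the smallest p and the 2 with the lowest fold change, and the smallest p in each direction after activation in E2 and between sides. All others were chosen after their values were seen.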

Additional observations from a re-analysis of the deposited data

Results flagged for a closer look

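Among 91 sets of 6 libraries examined (totals, shares and medians of the members, and the CPM of the contigs named), 8 had a library that stood apart from the other 5 by Dixon's criterion, where chance gives about 1 in 20. Of these, 7 were E2 control libraries, which also served the selection. Many of the contigs were named after their values were seen, and some vary together, so the rate of 1 in 20 does not strictly apply.

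Contig 581762 had 11.1 CPM in the E2 control library of snail 13, against 0.114 to 0.321 CPM in the other 5. Contig 309866 had 31.1 CPM in that of snail 12, against 0.0904 to 1.05 CPM. Contig 1898481 had 54.8 CPM in that of snail 12, against 6.02 to 19.1 CPM. Contig 1189293 had 19.1 CPM in that of snail 10, against 1.80 to 4.97 CPM. Contig 253000 had 3.16 CPM in that of snail 9, against 1.83 to 2.12 CPM.

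The E2 control library of snail 8 stood apart in both leading contigs of the set of 24, with 12756 CPM for contig 66429 (6392 to 8530 CPM in the other 5) and 8712 CPM for contig 1266951 (3610 to 5214 CPM). Among the E2 activated libraries, contig 1620890 had 1078.5 CPM in snail 10, against 204 to 423 CPM in the other 5.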

How the results depend on the processing

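All members tested had a positive log2 fold change in the activated libraries under every alternative (200 members, or 178 at 1 CPM or more in 6 libraries) but the right libraries alone (197 of 198). The members called, 157 in the report, were 185 with the exact test, 194 with DESeq2, 163 with RLE size factors, 151 with column sums, 181 without the filter, 156 of 178 at 1 CPM or more in 6 libraries, 129 with the side as a covariate, 170 with the newer mode (chosen after seeing the data), 83 with the left and 0 with the right libraries alone. Leaving out 1 library gave 114 to 160. Over all contigs, 4553 calls became 9516 with the exact test, 9249 with DESeq2, 8595 with column sums, 1086 and 0 with the left and the right libraries alone, and 2943 to 4282 without 1 library. The selection kept 165 of the 200 members with TMM-scaled CPM (1972 contigs then qualified), 140 with 0.1 and 180 with 1 added to the means, and 154 to 188 without 1 control library. Members without overlap numbered 51 with TMM-scaled CPM and 59 to 125 without 1 activated library.

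For activated against control libraries in E2, all contigs called (112) became 0 with the quasi-likelihood test, 239 with DESeq2 and 52 to 192 without 1 library, with 0 members called in each. With the snail as replicate block they became 783 with 1 member, and 0 in the newer mode. In E1, the quasi-likelihood test called 0 members and 0 contigs, the block 6 members and 1269 contigs, and leaving out 1 library (chosen after seeing the data) 3 to 4 members and 141 to 674 contigs. For left against right, the block gave 10 members and 445 contigs, and in the newer mode 0 and 33. Leaving out 1 library, also chosen after seeing the data, gave 0 members and 105 to 201 contigs (fewest when snail 12 was left out, and 109 when either the control library of snail 13 or the activated one of snail 9 was). The fits with the newer mode and the block were chosen after seeing the data. The block changed no other call of a member, and the cause of these differences was not tested. The 926483 counts of the activated library of snail 9 limit what is seen of low members there, and the right side has 2 activated E2 libraries.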
